A study of Mus musculus with 2 samples.

Results

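*Hivep1* and *Usf3*, 2 genes for transcription regulators, were examined in an FMRP RNA immunoprecipitation (RIP) of wild-type adult mouse testis. They are 2 of the 4788 gene rows in the deposited table, and were chosen by their values in it, as genes low in the input and far higher in the FMRP RIP. Their ratios are therefore given as a description, without a test. One library came from the input, RNA of the testis lysate kept aside before precipitation, and 1 library from RNA precipitated with an anti-FMRP antibody. Both were from wild-type testis, no IgG library was used here, and with 1 library per group the differences have no replicate check. Whole testis was used, so a level cannot be given to a cell type, and more cells with a transcript cannot be told apart from more RNA per cell.

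FMRP, the product of *Fmr1*, is an RNA-binding protein that associates with mRNAs and regulates their translation. HIVEP1 is a very large zinc finger protein, which binds DNA motifs like those of NF-kB and belongs to the family of the *Drosophila* SMAD partner Schnurri. USF3 belongs to the upstream stimulatory factors, basic helix-loop-helix proteins whose founding members USF1 and USF2 bind the E-box. The RIP followed the mRNAs of these regulators and not their proteins.

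Values are CPM, read counts divided by the size of the library, so that every value is relative to all reads of its library. The totals behind them were 30849871 reads in the input and 36506932 reads in the FMRP RIP, so that 1 read was worth 0.0324 CPM and 0.0274 CPM. Each row of the table is a protein-coding gene that the authors marked as higher in the FMRP RIP, termed a listed gene here. The 4788 rows carry 4745 symbols, so some symbols stand in more than 1 row, in part with the same values. Counts, ranks and sums over the listed genes take each row separately. Of the protein-coding symbols in the RefSeq annotation, 21.2% were listed. Together, the listed genes took 14.2% of the reads in the input library and 55.2% in the FMRP RIP. Scaling to the remaining reads, those not on listed genes, would multiply every FMRP RIP value, and so every ratio below, by 1.92. Of 11 germ cell markers, *Sycp1* was listed, and none of the 4 Sertoli cell or 4 Leydig cell markers. As the table holds higher genes alone, this does not test the tissue label.

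*Hivep1* (ENSMUSG00000021366) lies on the plus strand of chromosome 13, from 42052021 to 42192537 (GRCm38). In the input, 94 reads gave it 3.05 CPM, and in the FMRP RIP, 6335 reads gave it 173.5 CPM. At its input level, about 111 reads would have been met in a library of the size of the FMRP RIP. The exact 95% Poisson intervals were 2.46 to 3.73 CPM for the input value and 169.3 to 177.9 CPM for the FMRP RIP value. The ratio of the CPM values was 57.0 (exact Clopper-Pearson 95% interval 46.5 to 70.6), or 109.1 when scaled to the remaining reads, which is beyond this interval. All intervals here cover counting error only. They take the reads as independent, which PCR copies are not, so they may be too narrow.

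*Usf3* (ENSMUSG00000068284) lies on the plus strand of chromosome 16, from 44173246 to 44227465. Its 84 input reads gave 2.72 CPM (interval 2.17 to 3.37), and its 4224 FMRP RIP reads gave 115.7 CPM (interval 112.2 to 119.2). At its input level, 99.4 reads would have been met in a library of the size of the FMRP RIP. The ratio was 42.5 (interval 34.2 to 53.4), or 81.4 when scaled to the remaining reads. The interval overlaps that of *Hivep1*, but neither interval holds the ratio of the other member, and the order of the members was not tested. For both members, the FMRP RIP count was large and the input count set most of the width of the interval.

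The counts of the members were whole numbers, or within 0.03 read of one. Among all listed genes, 78.4% of the input values above 0 and 78.8% of the FMRP RIP values lay within 0.005 read of a whole number. In the RefSeq annotation of GRCm38.p6, no other gene overlapped *Hivep1* or *Usf3* on either strand.

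With 1 CPM added to both values, which understates changes of low genes, the log2 fold change was 5.43 for *Hivep1* and 4.97 for *Usf3*. With 5 CPM added they were 4.47 and 3.97. With 1 CPM, they ranked 5 and 11 among the 4788 listed genes, whose median was 1.35. Both exceeded a log2 fold change of 1, as did 70.1% of the listed genes. *Hivep1* was 1 of 9 genes above 5, or 0.188% of the listed genes, and *Usf3* lay just under that value. Nothing is read from these shares, because the same contrast chose the members. The other genes above 5 were *Csnka2ip*, *Ms4a14*, *Gm45861*, *Akap12*, *Satl1*, *Mki67*, *Gm11639* and *Fhad1*, named after their values were seen. Of these, *Satl1* and *Mki67* had less input than *Hivep1*, at 1.39 CPM and 2.08 CPM.

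**Figure D1:**
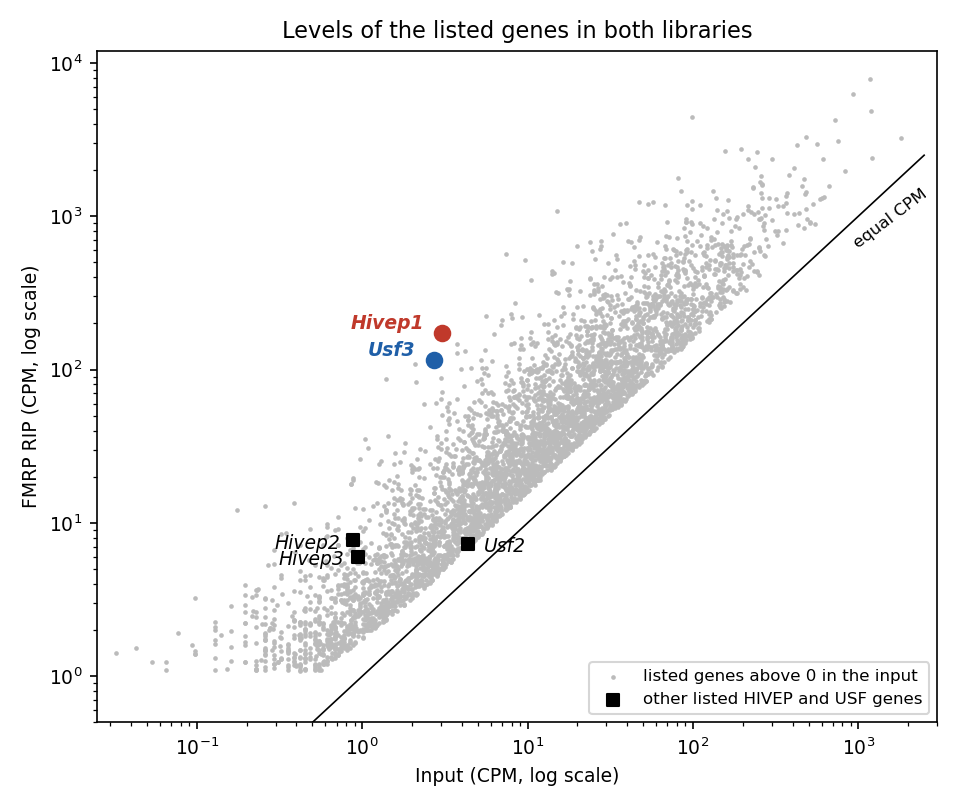
Each grey point is a listed gene above 0 in the input, with its input CPM on the x axis and its FMRP RIP CPM on the y axis, both on log scales, and the line marks equal CPM. *Hivep1* (173.5 CPM in the FMRP RIP) and *Usf3* (115.7 CPM) stand at the upper edge of the genes near 3 CPM in the input, whereas *Hivep2*, *Hivep3* and *Usf2* (black squares) lie below 10 CPM in the FMRP RIP.

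The members were low in the input and not in the FMRP RIP. Of the listed genes, 27.4% had a lower input CPM than *Hivep1* and 83.9% had a lower FMRP RIP CPM. For *Usf3* these shares were 25.5% and 77.5%. CPM is not divided by transcript length, and lengths of transcripts were not used here, so these shares order read numbers and not molecules.

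To place *Hivep1* against listed genes of similar input, the 666 listed genes within 1.5-fold of its input CPM were taken, from 2.04 to 4.57 CPM, leaving out the members. In the FMRP RIP, these genes had a median of 8.95 CPM, with quartiles of 6.09 and 14.7 CPM and a highest value of 147.4 CPM. The 173.5 CPM of *Hivep1* lay above all 666 and was 19.4 times their median. Their log2 fold changes ran from 0.49 to 5.16 with a median of 1.25, and *Hivep1* exceeded the median by 4.18. A log2 fold change above 1 was reached by 430 of them (64.6%), above 3 by 41, above 4 by 12 and above 5 by 1. That gene, directly below *Hivep1*, was *Mki67*, which encodes the proliferation marker Ki-67. No neighbour ranked above *Hivep1*. Yet the ratio of *Mki67* was 52.5 (interval 41.0 to 68.3), and this interval overlaps that of *Hivep1* (46.5 to 70.6). The intervals of *9930021J03Rik* (32.9 to 48.0) and *Muc16* (30.9 to 51.3) overlap it too, but overlap is not a test of a difference. Of these intervals, that of *Mki67* alone holds the *Hivep1* ratio of 57.0. By ratio, the place of *Hivep1* above *Mki67* is therefore within counting error.

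*Usf3* had 642 such neighbours, from 1.82 to 4.08 CPM in the input. Of these, 568 were also neighbours of *Hivep1*, so the comparisons are largely over the same genes. Their FMRP RIP median was 7.92 CPM, with quartiles of 5.64 and 12.7 CPM, and *Usf3* was at 14.6 times this median. Its log2 fold change lay 3.74 above their median of 1.23. A log2 fold change above 1 was reached by 409 of them (63.7%), above 3 by 34 and above 4 by 10. With 1 CPM added, the genes above *Usf3* were *Mki67*, at 5.16, and *9930021J03Rik*, a RIKEN cDNA gene. The latter was directly above it and equal to it when rounded, at 4.97. Directly below came *Muc16*, the gene of a large membrane-bound mucin, at 4.76. Their ratios were 52.5 (interval 41.0 to 68.3) for *Mki67*, 39.5 (interval 32.9 to 48.0) for *9930021J03Rik* and 39.5 (interval 30.9 to 51.3) for *Muc16*. These intervals overlap that of *Usf3*, so its place among these genes is within counting error. By ratio, without a pseudocount, *9930021J03Rik* lay below *Usf3* (42.5), and 1 neighbour, *Mki67*, lay above it.

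The neighbours are the genes of this input level that were called higher, and genes of the same level that were not called higher were not analysed here. The smallest ratio of CPM of any neighbour was 1.59, for both members, which the selection of the table fixes.

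**Figure D2:**
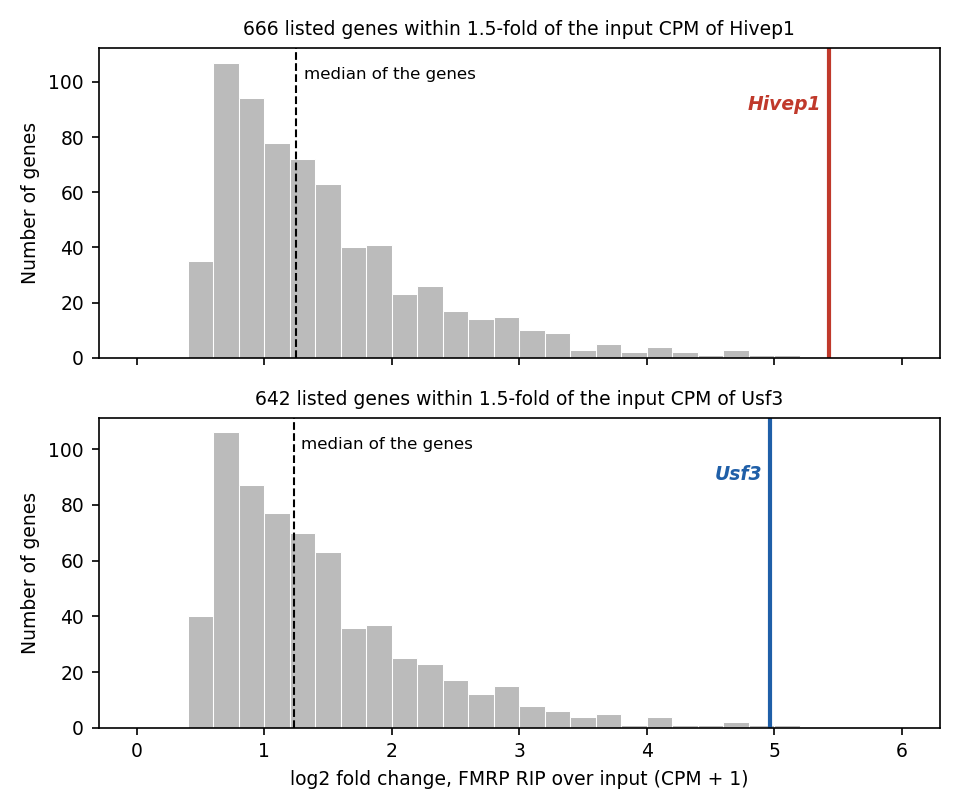
Histograms of the log2 fold change (FMRP RIP over input, CPM + 1) of the listed genes within 1.5-fold of the input CPM of *Hivep1* (upper panel, 666 genes) and *Usf3* (lower panel, 642 genes), with the number of genes on the y axis. The coloured line is the member, at 5.43 and 4.97, and the dashed line the median of its neighbours, at 1.25 and 1.23.

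Genes of similar FMRP RIP level were taken in the same way. Within 1.5-fold of the FMRP RIP CPM of *Hivep1* lay 551 other listed genes, with a median input of 45.4 CPM and quartiles of 27.0 and 72.2 CPM. Their lowest input was 3.73 CPM, so none had less input than *Hivep1*. For *Usf3*, 681 genes had a median input of 31.6 CPM and quartiles of 20.1 and 47.1 CPM. Of these, 3 had less input than *Usf3*, namely *Mki67*, *Muc16* and *Satl1*. The median ratio was 3.86 among the genes matched to *Hivep1* and 3.55 among those matched to *Usf3*.

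The genes most like each member were taken as the 5 nearest in the plane of log2(CPM + 1) of the input and the FMRP RIP, over 2 libraries. For *Hivep1* these were *9930021J03Rik* (distance 0.32), *Qser1* (0.50), *R3hdm2* (0.53), *Usf3* (0.59) and *Mki67* (0.78). For *Usf3* they were *Mki67* (0.29), *Qser1* (0.38), *Cylc2* (0.41), *Cdc42bpa* (0.46) and *9930021J03Rik* (0.49). *Cylc2* encodes cylicin 2, a cytoskeletal protein of the sperm head, and *Cdc42bpa* a kinase that acts downstream of CDC42. *Hivep1* was the 8th nearest gene to *Usf3*.

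*Qser1* had an input of 3.76 CPM and an FMRP RIP of 127.6 CPM, and thus a ratio of 33.9 (interval 28.2 to 41.2). *R3hdm2*, which encodes an R3H domain protein, had 4.18 CPM and 131.8 CPM, and its ratio was 31.5 (interval 26.5 to 37.9). Both intervals lie below that of *Hivep1* and overlap that of *Usf3*. The ratio of *Cylc2* was 29.2 (interval 23.7 to 36.2), which also overlaps that of *Usf3*, and that of *Cdc42bpa* was 25.6 (interval 21.3 to 30.9), which does not.

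**Figure D3:**
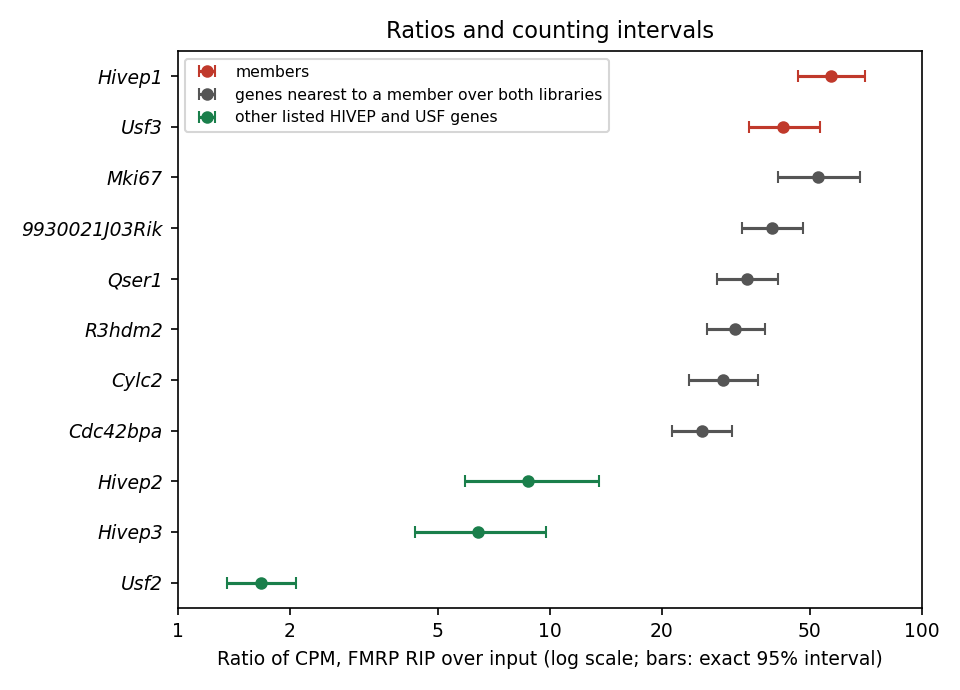
Ratio of CPM, FMRP RIP over input, on a log x axis with exact 95% intervals from the read counts as bars, for the members (red), the genes nearest to a member over both libraries (grey) and the other listed HIVEP and USF genes (green). The members stand at 57.0 and 42.5, and the related genes at 8.73 or lower.

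The other genes of the HIVEP family, *Hivep2* and *Hivep3*, were both listed, where 21.2% of the reference symbols were. *Hivep1* itself was chosen from the listed genes. *Hivep2* had an input of 0.882 CPM, from 27 reads, and an FMRP RIP of 7.70 CPM. Its ratio was 8.73 (interval 5.92 to 13.6). *Hivep3* had 0.940 CPM, from 29 reads, and 6.03 CPM, and its ratio was 6.41 (interval 4.34 to 9.80). Both encode large zinc finger proteins related to HIVEP1. The intervals of *Hivep2* and *Hivep3* overlap each other, and both lie below that of *Hivep1* (46.5 to 70.6). Their log2 fold changes were 2.21 and 1.86, at ranks 952 and 1427.

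*Usf2* was the other listed USF gene. It had more input than *Usf3* but far less in the FMRP RIP, at 4.34 CPM and 7.29 CPM. Its ratio was 1.68 (interval 1.36 to 2.08), and its log2 fold change of 0.63 stood at rank 4561, near the end of the listed genes. *Usf1* was not listed. *Hivep1* and *Usf3* each had the highest ratio among the listed genes of their own family. Nothing is read from this, because the same contrast chose them.

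Among 23 genes for USF and other E-box binding factors with a basic helix-loop-helix and a leucine zipper, 7 were listed, of which *Usf3* was chosen from the listed genes. Without it, 6 of 22 were listed (27.3%, beside 21.2% of the reference symbols). Of the 6, 5 had a log2 fold change above 1, as did 70.1% of all listed genes, and their median was 1.71, beside 1.35. The highest was *Mga*, the gene of a large partner of MAX, which had an input of 9.37 CPM and an FMRP RIP of 80.5 CPM. Its ratio was 8.60 (interval 7.62 to 9.73). *Mxi1*, a MYC antagonist, had a ratio of 4.67 (interval 4.16 to 5.26). *Mlxip*, which encodes the glucose-responsive factor MondoA, had 4.43 (interval 3.91 to 5.03). *Mxd1* and *Mnt*, for repressors that pair with MAX, had 2.67 (interval 2.44 to 2.92) and 2.62 (interval 2.28 to 3.03).

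The NF-kB list had 5 of 12 genes listed (41.7%, beside 21.2% of the reference symbols), with a median log2 fold change of 1.15, below the 1.35 of all listed genes. The highest was *Ikbkb*, a kinase of the inhibitor of NF-kB, with a ratio of 4.31 (interval 3.66 to 5.10), and the lowest *Chuk*, its partner kinase, with 1.90 (interval 1.55 to 2.32). The subunit genes *Rel* and *Nfkb1* had ratios of 3.20 (interval 2.23 to 4.71) and 2.65 (interval 2.23 to 3.15). *Nfkbib*, for an inhibitor, had 2.11 (interval 1.91 to 2.34). A log2 fold change above 1 was reached by 4 of the 5, and by 70.1% of all listed genes.

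Of 14 genes for SMAD factors and receptors of the BMP and activin type, 7 were listed, where 21.2% of the reference symbols were. Their median log2 fold change was 0.99, beside 1.35 over all listed genes, and 3 of the 7 were above 1, beside 70.1%. The receptor genes were the 3 highest, with log2 fold changes of 1.94 for *Bmpr2*, 1.31 for *Bmpr1a* and 1.19 for *Acvr2b*. The SMAD genes *Smad2*, *Smad5*, *Smad3* and *Smad9* had 0.99, 0.82, 0.59 and 0.52. No listed gene of these lists, apart from the members, had a log2 fold change above 2.98.

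**Figure D4:**
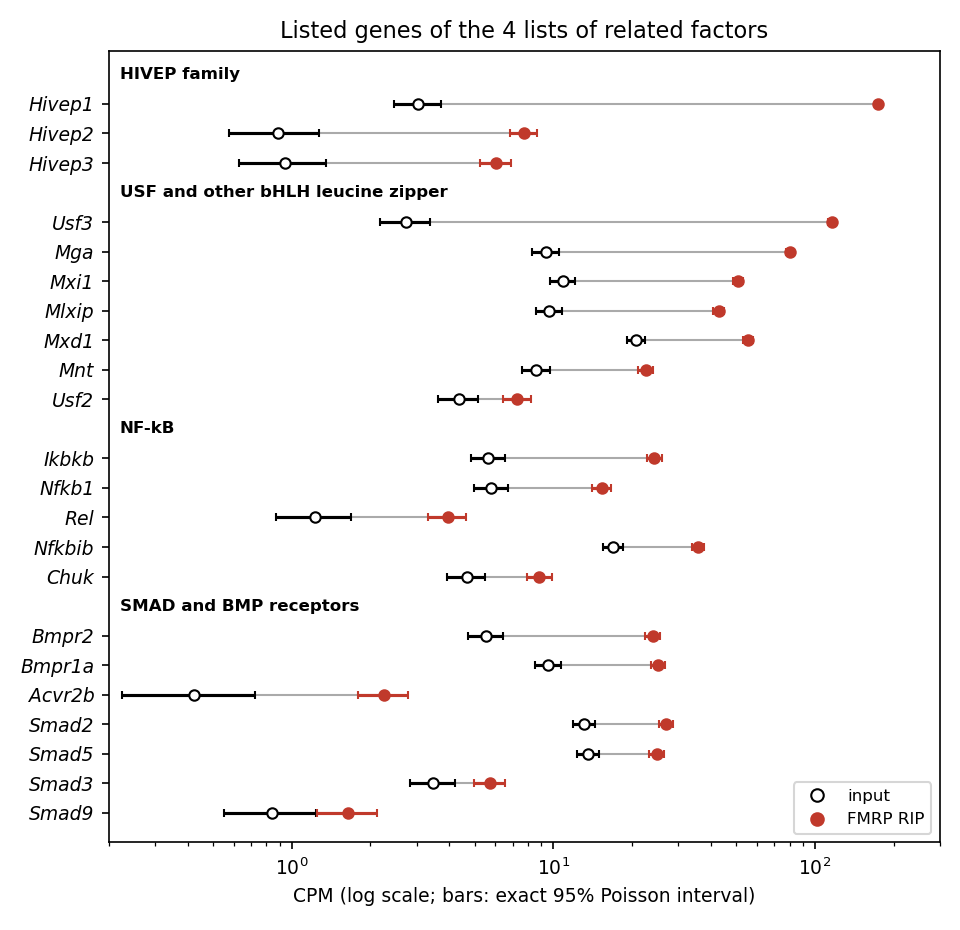
Input CPM (open points) and FMRP RIP CPM (red points) of every listed gene of the 4 lists on a log x axis, with exact 95% Poisson intervals as bars and a grey line joining the values of a gene. The lines of *Hivep1* (3.05 to 173.5 CPM) and *Usf3* (2.72 to 115.7 CPM) are the longest.

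Of the structure of the genes, only the span could be compared here. The deposited span of *Hivep1*, from start to end of the gene, was 141 kb, longer than that of 84.0% of the listed genes and 77.6% of its neighbours. *Usf3* spans 54.2 kb, near the middle of both groups, with 54.4% of the listed genes and 50.5% of its neighbours shorter. The span includes introns and is not the length of the mRNA. Among the 666 neighbours of *Hivep1*, the 333 with the shorter spans had a median log2 fold change of 1.14 and the 333 with the longer spans 1.33. For *Usf3*, these medians were 1.17 and 1.29 over 321 genes each. The protein-coding genes next to the members were also looked up, 2 on each side. Beside *Hivep1*, *Adtrp*, *Edn1* and *Phactr1* were not listed, and *Tmem170b* had a ratio of 4.35. Beside *Usf3*, *Naa50*, *Sidt1* and *Spice1* were not listed, and *Atp6v1a* had a ratio of 1.71.

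The DNA around annotated starts of both members is rich in G and C. RefSeq windows from 250 bases before to 50 bases after a transcript start (GRCm38.p6) lie at chr13:42051771-42052070 for *Hivep1* and chr16:44173147-44173446 for *Usf3*. These starts are not the first annotated ones, which are 42051899 for *Hivep1* and 44173236 for *Usf3*. Part of each window therefore lies inside the annotated gene, and its values are not of upstream DNA alone. The windows are 87.0% and 80.3% G and C and hold 48 and 40 CG dinucleotides. The medians were 52.7% and 7 over 32851 such windows, and 61.3% and 21 over the 4946 windows of listed genes. A higher G and C content was found in 7 windows for *Hivep1* and in 271 for *Usf3*. The 80 bases before the first annotated start of each gene are given to show this composition, at chr13:42051819-42051898 and chr16:44173156-44173235, both on the plus strand. Capitals mark the GC box GGGCGG on either strand, with overlapping matches joined.
Hivep1: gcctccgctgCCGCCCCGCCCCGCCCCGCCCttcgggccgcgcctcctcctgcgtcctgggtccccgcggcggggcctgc
Usf3: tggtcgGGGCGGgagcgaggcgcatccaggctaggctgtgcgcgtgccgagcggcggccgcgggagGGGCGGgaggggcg

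In the whole windows, the GC box occurred 15 times for *Hivep1* and 5 times for *Usf3*, counting both strands and overlaps, and 35.7% of all windows and 58.9% of those of listed genes held at least 1. The E-box CACGTG and the TATA motif TATAAA, searched on both strands, were in neither window, whereas 7.15% and 13.6% of all windows held them, and 9.0% and 7.08% of those of listed genes. These are descriptions of the DNA, and the RIP did not measure the promoters.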

How the data were processed

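The authors deposited CPM per gene for 1 input and 1 FMRP RIP library, beside their own edgeR results. Per the submitters' processing notes, reads were aligned with STAR to GRCm38 (mm10). The counting tool and annotation are not given in the sources used here. Each row is marked as higher by the authors. Their fold change and p-value columns were not used. Every column of values belonged to a labelled sample.

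Library totals were found as the smallest whole numbers for which nearly all CPM values (99.92% of input values, 100.0% of FMRP RIP values) are multiples of 0.01 read, to within 0.0002 read. As many values were fractions of reads, no count test was run. The functions were checked on simulated data. *Hivep1* and *Usf3* and all lists were chosen with earlier results of these data known. The genes named are the members, the listed genes of the fixed lists, the 5 genes nearest each member, and those directly above and below it among its neighbours, within 1.5-fold in input CPM. Outside this rule, the genes above a log2 fold change of 5, those of similar FMRP RIP but lower input, and the flanking genes were named after values were seen. Intervals were made from reads rounded to whole numbers, at a confidence level of 95%. The floor of 3 input reads, 0.0972 CPM, lies below every gene given with a ratio. The 21.2% of listed genes is 4637 of 21900 protein-coding symbols. Other pseudocounts, scalings and neighbour definitions were tried. Calculations were made in Python 3.11.15 with scipy 1.17.1, pandas 2.3.3 and numpy 2.4.6, and figures with matplotlib 3.10.9.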

Additional observations from a re-analysis of the deposited data

How the results depend on the processing

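The size of the log2 fold changes depended on the pseudocount, by more than the counting interval of each gene. With 0.1 CPM in place of 1 CPM, *Hivep1* had 5.79 and *Usf3* 5.36, with 5 CPM 4.47 and 3.97, and with none 5.83 and 5.41. Scaling the FMRP RIP to the reads outside the listed genes, a factor of 1.92, gave 6.36 and 5.90. The ranks of *Hivep1* and *Usf3* among the listed genes moved from 5 and 11 to 12 and 41 with 5 CPM. The distance to the median of genes of similar input moved less, and beyond the counting interval with 5 CPM alone, to 3.71 for *Hivep1* and 3.24 for *Usf3*. No neighbour exceeded *Hivep1* in any of these definitions, and at most 3 exceeded *Usf3*. The count of listed genes with a log2 fold change above 1 ranged from 2476 with 5 CPM to 4786 with the other scaling, around 3355. Of 29 alternative values, 19 stayed within the counting interval of the gene or, for the count of genes, within 1.5 times, and 10 moved beyond it. None changed sign, which the selection of listed genes fixes. Matching on gene span, tried after seeing the data, gave 4.15 and 3.68. Matching on coding length, and the planned description of coding exons and of motifs in coding sequence, were not run, since coding lengths and sequences were not used here. No paired analysis was possible because there is 1 library in each group. Depth limits the ratios through the 94 and 84 input reads.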
